A study of Mus musculus with 24 samples.

Results

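The clock output transcription factors Dbp, Tef, Hlf, Nfil3, Ciart, Bhlhe40 and Bhlhe41 were followed through myocardial ischemia and reperfusion in left ventricles of mice with and without Per2. A member was measured by the probe set that the platform annotation pairs with its symbol alone, or, where several were, by the brightest of them on average over the 24 arrays. Of the 7 genes, 6 were measured in this way, among 18820 genes in all. The only probe set of Dbp is shared with another gene, so that Dbp is named here without values. Ciart has 2 probe sets of its own, and both are shown. The groups came from 2 genotypes and 4 treatments with 3 mice each, 1 mouse per array and 24 arrays in all. Per2-/- mice, a knockout obtained from the Jackson Laboratories, were set against wildtype mice of the C57BL6 strain. The sources used here do not name these wildtype mice as littermates. Loss of Per2 and other genetic differences between the mice therefore cannot be told apart. All animals were males of 12 to 16 weeks under pentobarbital anesthesia, studied at the same time of day (zeitgeber time 0). I30 hearts were taken at the end of 30 minutes of ischemia. IP0 hearts were preconditioned with 4 cycles, in each of which 5 minutes of ischemia were followed by reperfusion for 5 minutes. I30R60 hearts were ischemic for 30 minutes and then reperfused for 60 minutes. The controls were sham-operated, and their labels also call them untreated. The design asks which genes respond to each protocol, and whether the response differs in hearts that lack Per2. The protocols differ in length, so that the treatment and the time under anesthesia cannot be told apart. Harvest times are not given, so that the treatment and the clock time at which a heart was taken cannot be told apart either.

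In GRCm38.p6 coordinates of RefSeq, the measured genes are Nfil3 (chr13:52967209-52982878), Bhlhe40 (chr6:108660629-108666925), Bhlhe41 (chr6:145858243-145865420), Ciart (chr3:95878500-95882257), Tef (chr15:81802673-81826863) and Hlf (chr11:90336535-90390917). The 7 proteins carry the rhythm of the molecular clock to other genes. Dbp, Tef and Hlf are the PAR bZIP family, which activates transcription from D-box elements, and Nfil3 (E4BP4) is a bZIP repressor that competes for the same elements. Bhlhe40 (DEC1) and Bhlhe41 (DEC2) bind E-boxes and repress activation by CLOCK and BMAL1, and Ciart (CHRONO) represses the same heterodimer. Expression of these genes is in turn driven by the clock through E-boxes, D-boxes or ROR elements, and Bhlhe40 is also known as a gene induced by hypoxia.

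Because CLOCK and BMAL1 bind the E-box, the letters CACGTG were searched in the promoter windows of the members. A window ran from 250 bases before to 50 bases after each listed start (RefSeq, GRCm38.p6). CACGTG is its own reverse complement, so that 1 search covers both strands. A sequence was found for 6 of the 7 members, with 7 windows in all, and Bhlhe40 was not matched. The E-box occurred in the windows of 3 members, Tef, Ciart and Bhlhe41. Of all 32851 windows of the same length, 7.15% held it. These stretches are shown with the E-box in capitals and with 20 bases on either side, 5′ to 3′ on the strand of the gene.
Tef, first start, chr15:81802526-81802571, plus strand: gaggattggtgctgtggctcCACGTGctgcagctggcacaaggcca
Tef, second start, chr15:81811256-81811301, plus strand: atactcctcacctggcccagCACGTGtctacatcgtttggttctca
Ciart, chr3:95882247-95882364, minus strand: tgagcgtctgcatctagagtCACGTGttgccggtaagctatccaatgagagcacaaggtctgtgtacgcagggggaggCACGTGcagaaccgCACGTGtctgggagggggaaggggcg
Bhlhe41, chr6:145865548-145865593, minus strand: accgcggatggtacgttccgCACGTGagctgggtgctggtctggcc

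The Ciart window held 3 E-boxes, the first bases of which lay at -116, -58 and -44 from the start. Only 29 of the 32851 windows (0.0883%) held 3 or more. The E-boxes of Tef lay at -127 and -138 from its 2 starts, and that of Bhlhe41 at -153. The windows of Dbp, Hlf and Nfil3 held none. Starts without a window were not searched. The Nfil3 window, chr13:52980990-52981289 on the minus strand, lies inside the span of the gene, so that the outer end at 52982878 was not covered. The D-box TTANGTAA, searched on both strands, was present in 2.32% of all windows and in no window of a member. The cyclic AMP response element TGACGTCA, a palindrome, was present in 1.79% of all windows and in that of Hlf, at -9. A match of letters is a description and no site of binding, and no binding was measured here.

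Of the arrays as a whole, values are log2 intensities, with array medians between 4.39 and 4.52. Ventricular muscle genes (6 of 7 measured) averaged between 12.52 and 12.67 in every array, whereas atrial Myl7 was above 5 in 4 arrays, namely replicate 3 of Per2-/- sham (11.21), replicate 3 of Per2-/- IP0 (9.12), and wildtype sham replicates 1 (8.24) and 2 (5.22). Each comparison of a member was also computed without these arrays, and values are given where a call was lost. That fit was left with 1 wildtype sham heart, replicate 3. Per2 itself was at 4.94 to 6.25 in the 12 arrays labelled Per2-/- and at 4.66 to 6.71 in the 12 wildtype arrays, with a mean difference of -0.30 (SE 0.13, adjusted p = 0.357). Which exons the deletion removes is not given in the sources used here, so that this probe set may lie outside it, and the genotypes rest on the labels. No difference between genotypes below is checked by the knocked-out gene. Calls of a change rest on an adjusted p under 0.05 in a limma model of all 24 arrays (Benjamini-Hochberg over 18820 genes). All differences are on the log2 scale, in hearts given a protocol minus sham or in Per2-/- minus wildtype. In RNA of whole tissue, fewer cells of a type and less RNA per cell cannot be told apart.

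Nfil3, the D-box repressor, rose in 4 of the 6 comparisons of a protocol with sham, more often than any other member. In Per2-/- hearts, its log2 intensity was 6.74, 6.90 and 6.52 after I30, 7.33, 6.81 and 6.96 after IP0 and 7.99, 7.69 and 7.74 after I30R60, against 6.92, 6.83 and 5.76 in sham hearts. In wildtype hearts, it was 6.98, 6.62 and 7.36 after I30, 7.34, 7.68 and 7.54 after IP0 and 7.996, 7.85 and 7.51 after I30R60, against 6.13, 5.85 and 5.99 in sham hearts. All 9 wildtype hearts given a protocol lay above all 3 wildtype sham hearts. In Per2-/- hearts only the I30R60 group was clear of its sham group, in which replicate 3 lay more than 1 log2 unit below the other two. After I30R60, Nfil3 was higher by 1.31 in Per2-/- hearts (SE 0.24, 2.48-fold, adjusted p = 0.00219, limma) and by 1.79 in wildtype hearts (SE 0.24, 3.47-fold, adjusted p = 0.000118). The IP0 difference was 0.53 in Per2-/- hearts, which was not called (95% confidence interval 0.04 to 1.03, adjusted p = 0.564), and 1.53 in wildtype hearts, which was called (SE 0.24, 2.89-fold, adjusted p = 0.00245). After I30 alone, the difference was 0.22 in Per2-/- hearts (adjusted p = 0.882) and 1.00 in wildtype hearts (SE 0.24, 2-fold, adjusted p = 0.0334). Leaving out replicate 1 or 3 of the wildtype I30 hearts, or any single wildtype sham heart, ended this last call (adjusted p between 0.0764 and 0.101). The fit without the arrays high in Myl7 ended it as well. That fit was left with 1 wildtype sham heart, and its difference was 0.997. Without replicate 3 of the Per2-/- sham hearts, the Per2-/- differences became -0.15 after I30 (adjusted p = 0.882), 0.16 after IP0 (adjusted p = 0.930) and 0.94 after I30R60 (adjusted p = 0.0108).

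The genotypes were also compared in their Nfil3 response. In sham hearts, Nfil3 averaged 6.50 ± 0.65 in Per2-/- mice and 5.99 ± 0.14 in wildtype mice (SD, n = 3 each), a difference of 0.51 that was not called (95% confidence interval 0.01 to 1.01, adjusted p = 0.659). Without replicate 3 of the Per2-/- sham hearts this difference was 0.88, with an adjusted p of 0.0608. The IP0 difference in Per2-/- hearts minus that in wildtype hearts, the interaction, was -0.998 (95% confidence interval -1.70 to -0.30), and for I30 it was -0.78 (95% confidence interval -1.48 to -0.08). Neither was called, with adjusted p of 0.927 and 0.66, so that a different response of the genotypes is not shown. After I30R60, Nfil3 differed by 0.02 between Per2-/- and wildtype hearts (95% confidence interval -0.47 to 0.52). In the order of the 8 group means, both I30R60 groups came highest and both sham groups lowest. Between neighbours in this order, the values of wildtype IP0 and Per2-/- IP0 hearts were the only ones that did not overlap, and those by a margin under 0.01.

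**Figure D1:**
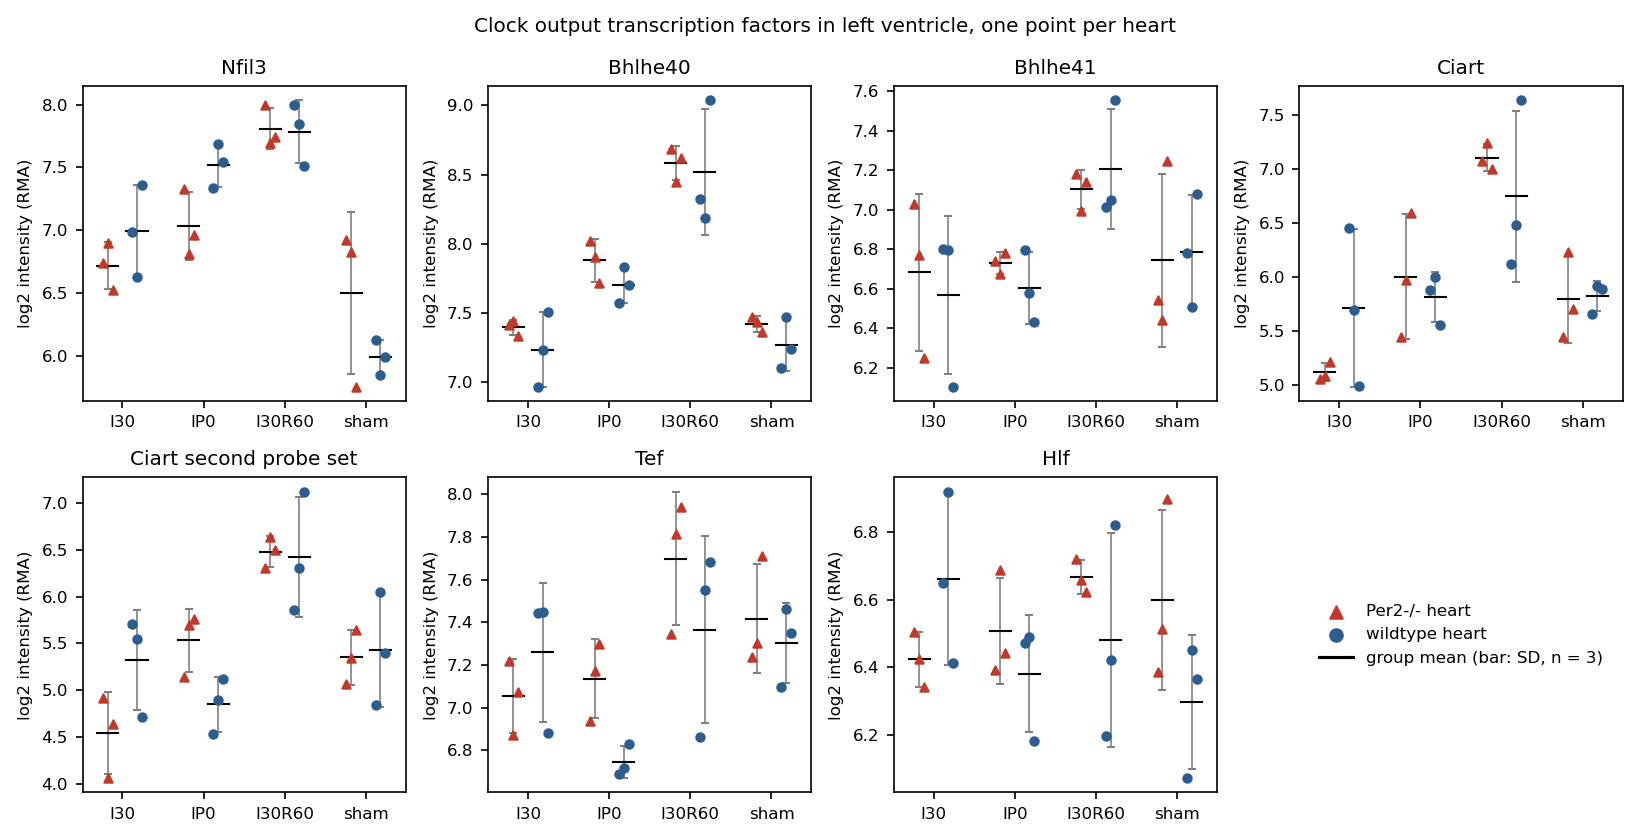
Log2 intensity of each member (y axis, each panel with its own range) by treatment (x axis), with 1 point per heart, triangles for Per2-/- and circles for wildtype, and lines and bars for the group mean and SD (n = 3). Every measured member but Hlf, with Ciart by both probe sets, has its highest group mean in each genotype after I30R60. The 3 Tef values of wildtype IP0 hearts, 6.69, 6.72 and 6.83, are the lowest of that gene.

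Bhlhe40, a repressor at E-boxes, rose after I30R60 in both genotypes, while its values in I30 and sham hearts overlapped. In Per2-/- hearts, it was at 7.42, 7.44 and 7.34 after I30, 8.02, 7.91 and 7.71 after IP0 and 8.69, 8.45 and 8.62 after I30R60, against 7.47, 7.43 and 7.36 in sham hearts. In wildtype hearts, it was at 6.97, 7.24 and 7.50 after I30, 7.57, 7.83 and 7.70 after IP0 and 8.32, 8.19 and 9.04 after I30R60, against 7.10, 7.47 and 7.24 in sham hearts. In either genotype all I30R60 values lay above all IP0 values, and all IP0 values above all sham values. The I30R60 difference was 1.16 in Per2-/- hearts (SE 0.17, 2.24-fold, adjusted p = 0.000226) and 1.25 in wildtype hearts (SE 0.17, 2.37-fold, adjusted p = 0.000137). Both calls held in limma with any single array left out. After IP0, the difference was 0.46 in Per2-/- hearts and 0.43 in wildtype hearts, neither of which was called (adjusted p = 0.421 and 0.275). Averaged over the genotypes, it was 0.45 (SE 0.12, adjusted p = 0.0563), just short of the threshold, and 10 of 34 alternative settings called it. Some of these left out a wildtype I30 or I30R60 array, which leaves the difference at 0.45 and changes only the spread or the adjustment. Replicate 1 of wildtype I30 was left out both singly and as the array with most lung transcripts. The count is therefore no measure of support. After I30 the differences were -0.02 in Per2-/- hearts (95% confidence interval -0.37 to 0.33) and -0.03 in wildtype hearts (95% confidence interval -0.38 to 0.32).

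Bhlhe41, the close relative of Bhlhe40, was not called in any comparison. Its values in Per2-/- hearts were 7.03, 6.77 and 6.25 after I30, 6.74, 6.67 and 6.78 after IP0 and 7.18, 6.99 and 7.14 after I30R60, against 6.54, 6.44 and 7.24 in sham hearts. Its values in wildtype hearts were 6.80, 6.80 and 6.11 after I30, 6.79, 6.58 and 6.43 after IP0 and 7.01, 7.05 and 7.55 after I30R60, against 6.78, 6.51 and 7.08 in sham hearts. The I30R60 groups had the highest means in both genotypes but overlapped with sham. The difference averaged over the genotypes was 0.39 (95% confidence interval 0.05 to 0.72, adjusted p = 0.15). Without replicate 3 of the Per2-/- sham hearts, which was the highest of that group at 7.24, it was 0.51, with an adjusted p of 0.0425.

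Ciart, the repressor with 3 E-boxes in its promoter window, had its highest group means after I30R60 in both genotypes and its lowest in Per2-/- hearts after I30. By the probe set with the higher mean, it was at 5.06, 5.09 and 5.22 after I30, 5.44, 5.97 and 6.59 after IP0 and 7.07, 7.24 and 7.002 after I30R60 in Per2-/- hearts, against 5.44, 6.24 and 5.71 in sham hearts. In wildtype hearts it was at 6.45, 5.70 and 5.00 after I30, 5.88, 6.003 and 5.56 after IP0 and 6.13, 6.48 and 7.63 after I30R60, against 5.66, 5.92 and 5.89 in sham hearts. All I30R60 hearts lay above the sham hearts of their genotype, while all 3 Per2-/- I30 hearts lay below theirs. The I30R60 difference was 1.31 in Per2-/- hearts (SE 0.35, 2.48-fold, adjusted p = 0.0333), which was called, and 0.92 in wildtype hearts (SE 0.35, adjusted p = 0.214), which was not. The interaction was 0.39 (95% confidence interval -0.63 to 1.41, adjusted p = 0.989), so that the genotypes are not shown to differ. Averaged over the genotypes, the difference was 1.11 (SE 0.24, 2.17-fold, adjusted p = 0.00552). The call in Per2-/- hearts was lost when any one of the I30R60 replicates, or sham replicate 1 or 3, was left out (adjusted p between 0.0660 and 0.133). Without the arrays high in Myl7, both that call and that of the average were lost. The differences were then 1.27 and 1.06, and 1 wildtype sham heart was left for the average.

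The second Ciart probe set gave the same order of treatments in Per2-/- hearts. There it read 4.92, 4.06 and 4.64 after I30, 5.14, 5.69 and 5.76 after IP0 and 6.31, 6.63 and 6.50 after I30R60, against 5.06, 5.35 and 5.64 in sham hearts. In wildtype hearts it read 5.71, 5.55 and 4.71 after I30, 4.54, 4.89 and 5.12 after IP0 and 5.86, 6.30 and 7.12 after I30R60, against 4.84, 6.05 and 5.40 in sham hearts. The groups after I30R60 overlapped with sham in wildtype but not in Per2-/- hearts. The tests of this probe set come from a limma fit that used, for every gene with several, the probe set with the lowest mean. The I30R60 difference was 1.13 in Per2-/- hearts (adjusted p = 0.055) and 1.00 in wildtype hearts (adjusted p = 0.14). Only the average of both genotypes was called, at 1.06 (SE 0.23, adjusted p = 0.0055). After I30, the difference by this probe set was -0.81 in Per2-/- hearts (95% confidence interval -1.497 to -0.13, adjusted p = 0.664), beside -0.67 by the first (95% confidence interval -1.40 to 0.05, adjusted p = 0.734). The wildtype IP0 difference was -0.58 by the second probe set (limma, adjusted p = 0.53) and -0.01 by the first (adjusted p = 0.996). Within IP0 hearts, Per2-/- minus wildtype was 0.68 without overlap by the second (adjusted p = 0.867). By the first it was 0.19 with overlap (adjusted p = 0.991). Both probe sets correlated across the 24 arrays by 0.88, as a description.

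The PAR bZIP activators Tef and Hlf, which Nfil3 opposes at D-boxes, were not called in any comparison. Tef in Per2-/- hearts was at 7.22, 6.87 and 7.07 after I30, 6.94, 7.17 and 7.30 after IP0 and 7.35, 7.81 and 7.94 after I30R60, against 7.24, 7.30 and 7.71 in sham hearts. In wildtype hearts it was at 7.44, 7.45 and 6.88 after I30, 6.69, 6.72 and 6.83 after IP0 and 6.86, 7.55 and 7.68 after I30R60, against 7.10, 7.46 and 7.35 in sham hearts. In each genotype the highest Tef mean was that of I30R60 hearts, with values that overlapped with sham. It was 7.70 against 7.42 in sham for Per2-/- hearts and 7.37 against 7.30 for wildtype hearts. The 3 wildtype IP0 values were the lowest of all 24, with no overlap with any other group. The IP0 difference of Tef was -0.28 in Per2-/- hearts (95% confidence interval -0.70 to 0.14, adjusted p = 0.78) and -0.56 in wildtype hearts (95% confidence interval -0.98 to -0.14, adjusted p = 0.239). Within IP0 hearts, Tef differed by 0.39 between Per2-/- and wildtype (95% confidence interval -0.03 to 0.81, adjusted p = 0.892). Per2-/- I30 hearts also lay below their sham hearts in all 3 values, with a difference of -0.36 (adjusted p = 0.752).

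Hlf had the narrowest spread of group means, 0.37 from the lowest to the highest, against 0.95 for Tef and 1.82 for Nfil3. In Per2-/- hearts, Hlf was at 6.51, 6.42 and 6.34 after I30, 6.39, 6.69 and 6.44 after IP0 and 6.72, 6.66 and 6.62 after I30R60, against 6.39, 6.51 and 6.90 in sham hearts. In wildtype hearts, it was at 6.65, 6.92 and 6.41 after I30, 6.47, 6.49 and 6.18 after IP0 and 6.20, 6.42 and 6.82 after I30R60, against 6.07, 6.45 and 6.37 in sham hearts. Every group overlapped with its neighbours in the order of means. The I30 difference was -0.18 in Per2-/- hearts and 0.36 in wildtype hearts, an interaction of -0.54 (95% confidence interval -1.01 to -0.07, adjusted p = 0.66).

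Set side by side, 3 of the 6 measured members were called higher after I30R60 in Per2-/- hearts (Nfil3, Ciart and Bhlhe40) and 2 in wildtype hearts (Nfil3 and Bhlhe40). Of all genes tested, 4.79% were called in Per2-/- and 2.47% in wildtype hearts, and 2.78% and 1.66% were called higher. Of the genes called in Per2-/- hearts, 58.2% were higher, and 72.9% when arrays were centred on their medians. The median difference of the members was 0.76 in Per2-/- hearts, where that of all genes was -0.04, and 0.67 in wildtype hearts, where that of all genes was -0.02. After I30, 0 of 6 were called in Per2-/- hearts (0 also at an unadjusted p under 0.05) and 1, Nfil3, in wildtype hearts, where 0% and 2.39% of all genes were called. Under quantile normalization the wildtype I30 share was 0.553%, that is 104 genes in place of 449, and Nfil3 was still called. After IP0, limma called 0 of 6 in Per2-/- hearts, with 2 at an unadjusted p under 0.05, and 1, Nfil3, in wildtype hearts, with 0.159% and 0.850% of all genes called. No member was called lower in any comparison. Averaged over the genotypes, 0 of 6 were called after I30 (1 at an unadjusted p under 0.05, Nfil3), 1 after IP0 and 3 after I30R60, where 1.61%, 1.94% and 9.34% of all genes were called. The I30 average called 21 genes under quantile normalization (0.112%) in place of 303, and the IP0 average called 585 with arrays centred on their medians (3.11%) in place of 366. The 3 comparisons of a genotype share 1 sham group, and are not independent of each other.

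**Figure D2:**
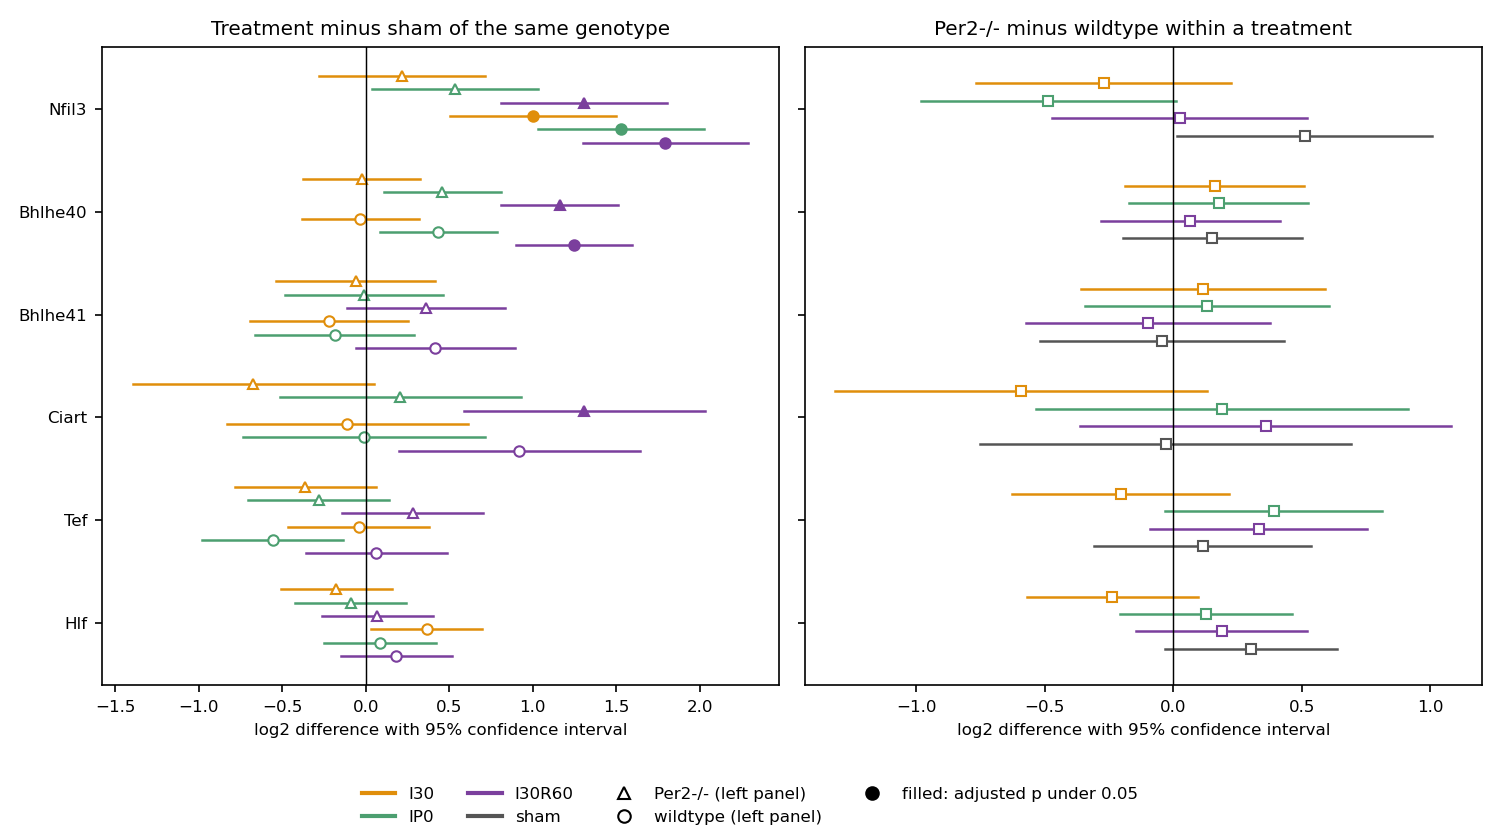
Log2 difference (x axis) with its 95% confidence interval for each measured member (y axis), each treatment minus sham of the same genotype on the left and Per2-/- minus wildtype within a treatment on the right, with filled points for an adjusted p under 0.05. The 7 filled points belong to Nfil3, Bhlhe40 and Ciart and all lie above 0, and the right panel has none.

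In no treatment was a member called between the genotypes. Limma called 0 of 6 within sham, I30, IP0 and I30R60 hearts, with 1 at an unadjusted p under 0.05 in sham hearts (Nfil3) and 0 in each of the others, while 0.266%, 0.664%, 0.0797% and 0.175% of all genes were called. Averaged over the 4 treatments, the Per2-/- minus wildtype differences of the members ran from -0.06 for Nfil3 to 0.16 for Tef, and 0 of 6 were called against 1.88% of all genes. The interactions called no member and 0% of all genes for I30, IP0 and I30R60 alike, with 2, 1 and 0 members at an unadjusted p under 0.05. The methods' t-test after adjustment called no member within any treatment either. Intervals between the genotypes were wide for Ciart, from -1.32 to 0.13 in I30 hearts, and narrowest for Hlf and Bhlhe40.

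Some markers of other cells moved with these treatments. A list of 6 neutrophil genes, all 6 measured, averaged 5.82 to 6.57 in Per2-/- I30R60 hearts against 3.71 to 4.29 in Per2-/- sham hearts, and 5.38 to 6.67 in wildtype I30R60 hearts against 4.54 to 4.64 in wildtype sham hearts. A list of 5 macrophage genes averaged 7.15 to 7.21 in Per2-/- I30R60 hearts against 6.76 to 6.94 in sham hearts of that genotype, and 6.86 to 7.52 in wildtype I30R60 hearts against 6.81 to 7.01 in sham hearts. In Per2-/- hearts, Cd14 and Mrc1 rose from means of 6.19 and 7.28 in sham to 7.30 and 7.72. Cd68, Adgre1 and Csf1r stayed close, from 6.47, 6.79 and 7.56 to 6.50, 6.77 and 7.58. In wildtype hearts, Cd14 and Mrc1 rose from 6.06 and 7.35 to 6.95 and 7.71. There Cd68 went from 6.47 to 6.58, Adgre1 from 6.99 to 6.89 and Csf1r from 7.63 to 7.59. In wildtype I30 hearts, where Nfil3 was called, 6 lung epithelial genes averaged 3.69 to 4.98 against 2.97 to 3.04 in wildtype sham hearts, the neutrophil list 4.51 to 6.17, and the interquartile range of the array was 3.76 to 3.87 against 4.01 to 4.11. The part of these cells and arrays in the differences of Nfil3, Bhlhe40 and Ciart was not tested. Without the wildtype I30 array with the most lung transcripts, which is replicate 1, the Nfil3 difference was 1.00 with an adjusted p of 0.0826. Of the 6 lung genes, Scgb1a1 and Sftpc rose most, from wildtype means of 2.59 and 2.75 in sham to 5.64 and 5.48 after I30. Sftpb, Sftpa1 and Sftpd went from 2.99, 3.42 and 2.22 to 3.87, 4.23 and 2.53, and Ager from 4.10 to 4.05.

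Around the members, few core clock genes were called against sham within a genotype. Of 17 listed, 14 were measured alone. After I30R60, 2 were called higher in Per2-/- hearts and 0 in wildtype hearts, where 2.78% and 1.66% of all genes were called higher. The median differences of the core clock genes were 0.12 and 0.14. The I30R60 interaction called 0 of the 14, so that the genotypes are not shown to differ. Cry1, a repressor of CLOCK and BMAL1, averaged 6.36 ± 0.05 in Per2-/- I30R60 hearts and 5.49 ± 0.35 in Per2-/- sham hearts (SD, n = 3 each), a difference of 0.87 (SE 0.16, adjusted p = 0.00233). In wildtype hearts its difference was 0.60 and was not called (SE 0.16, adjusted p = 0.0519). Csnk1d, a kinase that phosphorylates PER proteins, was the only other core clock gene called against sham within a genotype, by 0.38 in Per2-/- hearts (SE 0.08, adjusted p = 0.00614). In wildtype hearts Csnk1d averaged 8.28 after I30R60 and 8.04 in sham, which was not called. Averaged over the genotypes, Per1, Cry1, Csnk1d and Timeless were called higher after I30R60, by 0.27, 0.74, 0.31 and 0.52 (adjusted p = 0.0403, 0.000205, 0.000926 and 0.00475). These are 4 of the 14, where 807 of all 18820 genes were called higher. Timeless averaged 4.02 in Per2-/- and 3.87 in wildtype sham hearts, below the median of all values, 4.44. Of 13 other clock-controlled genes, 12 were measured, and their median differences after I30R60 were 0.08 in Per2-/- and 0.07 in wildtype hearts. Wee1, a cell cycle kinase under E-box control, rose after I30R60 by 0.90 in Per2-/- hearts (SE 0.18, adjusted p = 0.00384) and by 0.70 in wildtype hearts (SE 0.18, adjusted p = 0.0363). Gys2, the liver form of glycogen synthase, averaged 2.56 ± 0.23 in wildtype I30 hearts and 2.06 ± 0.10 in wildtype sham hearts (SD, n = 3 each), a called difference of 0.50 (SE 0.10, adjusted p = 0.0202) at a level well below the median of all values, 4.44. The files hold no detection calls, and these I30 arrays are those with the narrower interquartile range. No gene of these lists was called after IP0 in either genotype, or between genotypes within a treatment. Averaged over the treatments, Npas2, the partner of BMAL1 that stands in for CLOCK, was lower in Per2-/- hearts, with a difference of -1.18 (SE 0.20, adjusted p = 0.00211), and Per1 was higher by 0.26 (SE 0.06, adjusted p = 0.0202). Per2 was at -1.12 in Per2-/- against wildtype I30 hearts (SE 0.27, adjusted p = 0.0643).

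Hearts of 1 group differed in these genes too. To describe this, each value was taken as its deviation from the mean of its group, which removes treatment and genotype, and correlated over the 24 hearts, with values permuted within groups 100000 times and p values adjusted over 99 pairs (15 between members and 84 with core clock genes). In all, 16 of the 99 had an adjusted p of r under 0.05, with raw p between 0.0001 and 0.00651 for r and between 3e-05 and 0.00679 for rho, and with adjusted p of rho between 0.00297 and 0.0420. The pairs share genes, and are not independent of each other. No share among pairs of other genes was computed, so that the counts are not shown to be particular to clock genes. Nfil3 deviated against both PAR bZIP activators. It did so with Tef (r = -0.72, adjusted p = 0.00905, and Spearman's rho = -0.74, adjusted p = 0.0115, permutation test) and with Hlf (r = -0.75, adjusted p = 0.0139, and rho = -0.72, adjusted p = 0.0237). With the first Ciart probe set, these were the only 2 of the 15 pairs of members under the threshold. With the second in its place, an alternative chosen after seeing the data, 6 of the 15 pairs and 28 of 99 in all were under it. The second probe set then deviated with Tef (r = 0.84, adjusted p = 0.00198, and rho = 0.82, adjusted p = 0.00149, permutation test) and against Nfil3 (r = -0.62, adjusted p = 0.00959, and rho = -0.68, adjusted p = 0.0165). Its pair with Hlf (r = 0.67, adjusted p = 0.0386) and the pair of Hlf and Bhlhe41 (r = 0.66, adjusted p = 0.0454) passed by r but not by rho, whose adjusted p were 0.0651 and 0.0513. Without the 2 hearts farthest from the median of the first gene, r was -0.71 for Tef and -0.67 for Hlf, and over the 20 hearts low in Myl7 it was -0.72 and -0.69. Replicate 3 of Per2-/- sham shows the pattern in single values, with the highest Tef (7.71) and Hlf (6.90) and the lowest Nfil3 (5.76) of its group. This array also had the highest Myl7 of the 24 (11.21), and is not among the 20 hearts low in Myl7. Over all 24 values, with the treatments left in, r was -0.12 between Nfil3 and Tef and -0.02 between Nfil3 and Hlf, as a description.

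**Figure D3:**
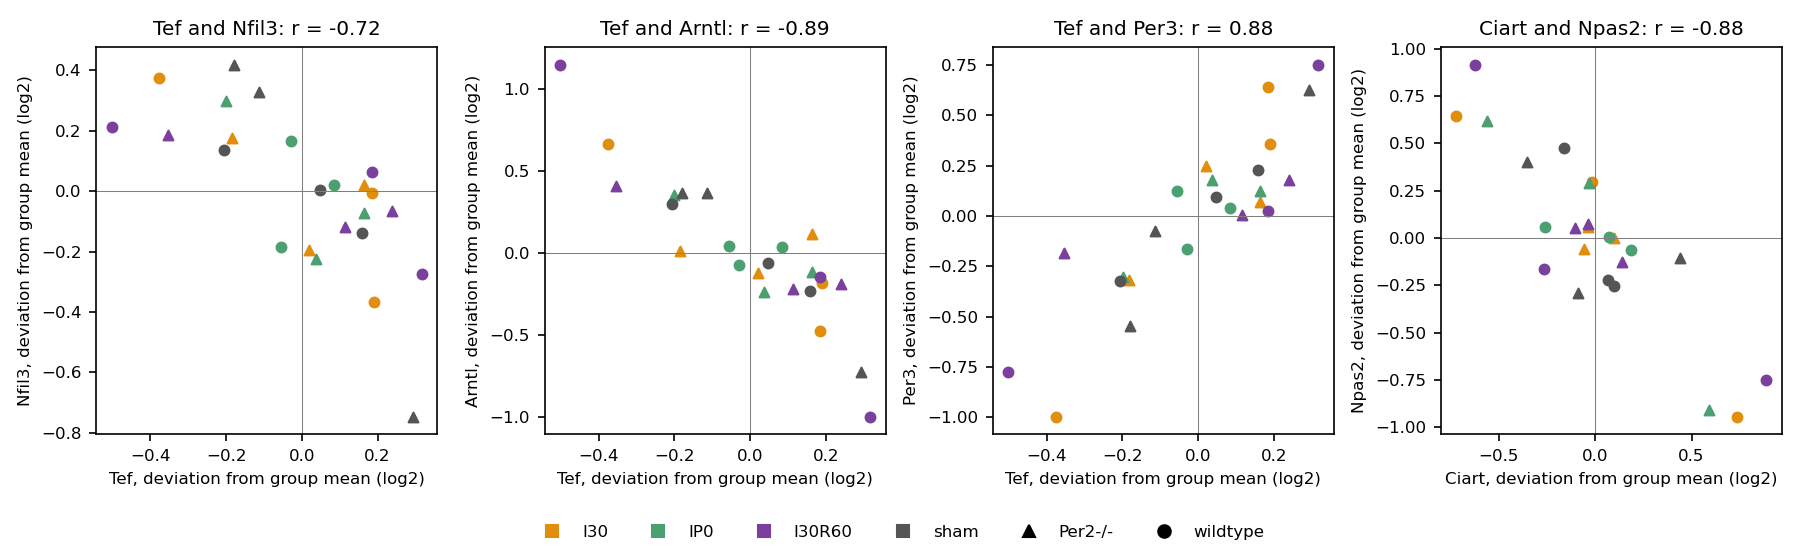
Deviation from the group mean in log2 units of 1 gene (x axis) against another (y axis) for 24 hearts, coloured by treatment, with triangles for Per2-/- and circles for wildtype. Tef runs against Nfil3 (r = -0.72) and Arntl (r = -0.89) and with Per3 (r = 0.88), and Ciart runs against Npas2 (r = -0.88).

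Tef deviated with several core clock genes of the negative limb and against Arntl, Clock and Npas2 of the positive limb. Of the negative limb, Cry1 (r = -0.07, adjusted permutation p = 0.918) and Per1 (r = 0.57, adjusted permutation p = 0.169) were not under the threshold with Tef. The adjusted permutation p was under 0.05 for 7 of the 14 pairs of Tef with core clock genes. Its deviations ran against those of Arntl, which encodes BMAL1 (r = -0.89, adjusted p = 0.00905, and rho = -0.84, adjusted p = 0.0145), of Clock (r = -0.77, rho = -0.75) and of Npas2 (r = -0.73, rho = -0.70). They ran with those of Per3, a period gene (r = 0.88, adjusted p = 0.00627, and rho = 0.84, adjusted p = 0.0102), of Per2 (r = 0.82, rho = 0.75), of Cry2 (r = 0.83, rho = 0.81) and of the repressor Nr1d2 (r = 0.84, rho = 0.80). For Clock, Npas2, Per2, Cry2 and Nr1d2 the adjusted p of r lay between 0.00627 and 0.0185. For Tef, r without the 2 farthest hearts kept its sign in each of these pairs and lay between 0.60 and 0.83 in size. Hlf showed the same signs with Arntl (r = -0.77, adjusted p = 0.0349, and rho = -0.68) and Per3 (r = 0.76, adjusted p = 0.0403, and rho = 0.69). Nfil3 showed the opposite signs, with Arntl at r = 0.75 (adjusted p = 0.0100, rho = 0.83), Per3 at r = -0.80 (adjusted p = 0.00627, rho = -0.89) and Nr1d2 at r = -0.64 (adjusted p = 0.0122, rho = -0.66). Ciart ran against Npas2 (r = -0.88, adjusted p = 0.0122, and rho = -0.74) and with Per1 (r = 0.81, adjusted p = 0.00905, and rho = 0.81). Without the 2 farthest hearts, r was -0.82 and 0.70 for these pairs of Ciart. By the second Ciart probe set, 8 of 14 pairs with core clock genes were under the threshold, in place of 2 by the first. They included Per3 (r = 0.84, adjusted p = 0.0033, and rho = 0.83), Clock (r = -0.79, adjusted p = 0.00532, and rho = -0.76), Npas2 (r = -0.73, adjusted p = 0.0239, and rho = -0.70) and Per1 (r = 0.75, adjusted p = 0.00932, and rho = 0.71). With the first Ciart probe set among the pairs, neither Bhlhe40 nor Bhlhe41 had a pair with an adjusted p under 0.05. The time of each harvest is not given in the sources used here, and its part in these deviations was not tested.

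**Figure D4:**
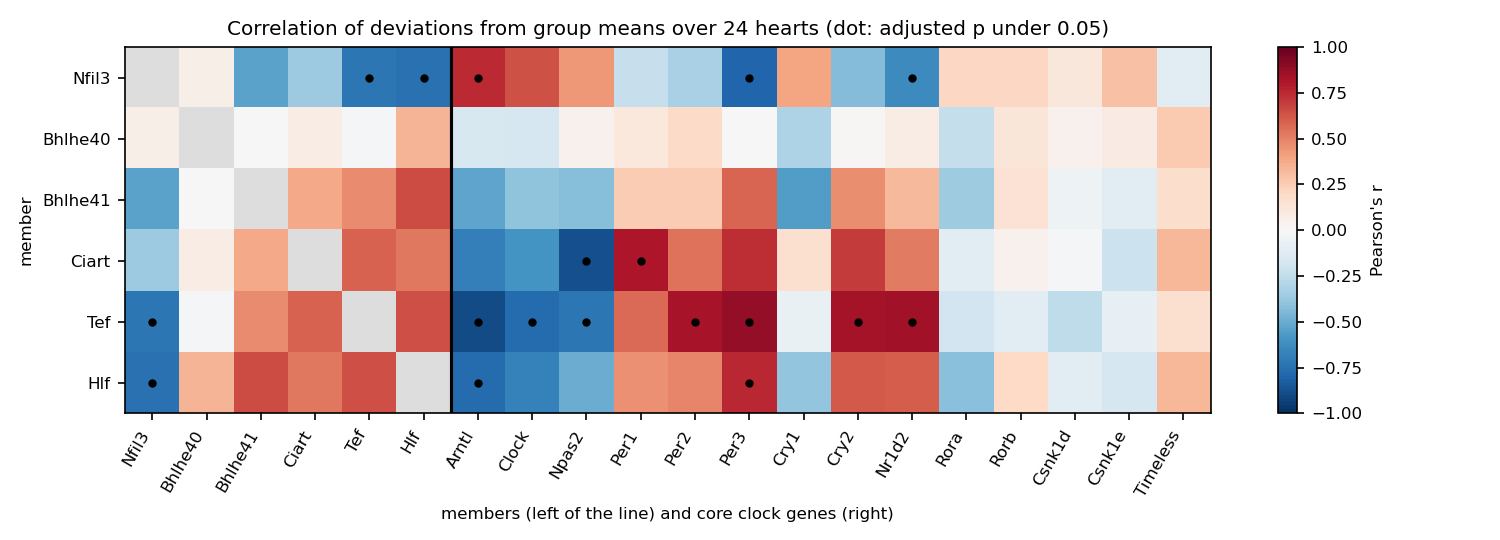
Pearson's r (color, from -1 in blue to 1 in red) between deviations from group means over 24 hearts, with the measured members (Ciart by its first probe set) as rows and the members and core clock genes as columns, and a dot for an adjusted permutation p under 0.05. The row of Nfil3 has the opposite colors of the rows of Tef and Hlf for Arntl and Per3, and the row of Bhlhe40 has no dot.

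The genes with the most similar values over the 24 arrays, treatments included, differed between members. Tef was most like Usp2, a clock-controlled ubiquitin protease (r = 0.91), Nr1d2 (r = 0.90) and the tetraspanin Tspan4 (r = 0.88), and Usp2 and Nr1d2 were also among the 3 nearest when deviations from group means were used. Nfil3 was most like Ier5, an immediate early gene (r = 0.92), the stress-induced transcription factor Atf3 (r = 0.91) and the heat shock protein family member Dnajb4 (r = 0.90). Bhlhe40 was most like Ccnl1, a cyclin of RNA processing (r = 0.94), the phosphodiesterase Pde4b (r = 0.93) and the histone gene H3f3b (r = 0.92). Ciart was most like the kinase gene Stk35 (r = 0.89), the immediate early gene Ier3 (r = 0.83) and Coq10b (r = 0.83). Bhlhe41 was most like the histone methyltransferase gene Dot1l (r = 0.85), the phosphatase gene Dusp10 (r = 0.80) and Nfatc2 (r = 0.78). Hlf had no close neighbour, with Tnxb at r = 0.68, Per3 at 0.67 and Lum at 0.66. By deviations from group means, the neighbours of Nfil3, Ciart and Bhlhe40 named here were at r between 0.34 and 0.68. These correlations share the 4 treatments and are given with no test.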

How the data were processed

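Affymetrix Mouse Gene 1.1 ST arrays were hybridised with left ventricular RNA of 24 mice. The deposited values are log2 intensities, which the authors made from CEL files by RMA in Partek Genomics Suite 6.6. They carry no detection calls, and the number of arrays limits the precision. Of 35555 probe sets, 21218 pair with 1 symbol, 1881 with several and 12456 are not listed. For 1386 genes the probe set with the highest mean was used. A model with a mean per group was fitted in limma 3.58.1 (R 4.3.3, 16 residual degrees of freedom, default eBayes) for 17 comparisons, with Benjamini-Hochberg adjustment over 18820 genes, and was tested on simulated data. Correlations used numpy 2.4.6 and pandas 2.3.3 (Python 3.11.15), and figures matplotlib 3.10.9. The members and lists were chosen with earlier results of these data known. Named genes were the members, called genes of the 2 clock lists, Per2, and the 3 genes most like each member. Alternatives changed the arrays in the model, variance moderation, array weights, scaling, genes kept, probe set, a replicate block, the test and single arrays. Leaving out the wildtype I30 array with most lung transcripts and the checks of the correlations within groups were chosen after seeing the data.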

Additional observations from a re-analysis of the deposited data

How the results depend on the processing

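Over 36 alternatives no called difference of a member changed direction, and 575 of 598 counts of calls kept within 1.5 times the main count. Of 3588 values of single members, 24 lost a call and 12 gained a call. Most of these counts and values held no call in the main fit, and so had none to lose. Nfil3 in wildtype I30 hearts was called in 27 of 36 alternatives, and Ciart in Per2-/- I30R60 hearts in 28 of 36. The settings without wildtype I30 replicate 1 and without the array with most lung transcripts are the same fit. The methods' t-test with adjustment called 0 members in I30R60 and in IP0 and I30 hearts of either genotype, against 3 (Per2-/- I30R60), 2 (wildtype I30R60), 1 (wildtype IP0) and 1 (wildtype I30) by limma. With only the 6 arrays compared, Nfil3 had an adjusted p of 0.0812 after I30R60 in Per2-/- hearts. The wildtype I30 count was 0 with only the 6 arrays compared (adjusted p of Nfil3 = 0.124), without the arrays high in Myl7 and without the array with most lung transcripts, and 0 to 1 with single arrays left out. The I30 average had 0 to 1 with single arrays left out, where leaving out wildtype I30 replicate 2 brought in Nfil3 (adjusted p = 0.0489). The IP0 average had 2 members, with Bhlhe40 as well as Nfil3, under an intensity trend with robust moderation, array weights, median centring, genes above the median and without the array with most lung transcripts (adjusted p between 0.0181 and 0.0476), and 1 to 2 with single arrays left out. Counts over all genes moved more. Outside single arrays left out, they ran from 0 to 619 for wildtype I30, 1 to 339 for wildtype IP0, 2 to 673 for wildtype I30R60, 3 to 1242 for Per2-/- I30R60, 0 to 51 for Per2-/- IP0, 4 to 571 for the I30 average, 87 to 660 for the IP0 average, 725 to 2218 for the I30R60 average and 0 to 3 for interactions. Between genotypes within a treatment they ran from 0 to 222. The lowest counts came from the methods' t-test where it was run. For the averages they came from leaving out the arrays high in Myl7, which left 1 wildtype sham heart. Medians of all genes moved to at most 0.06 under either scaling. With replicate number as a block no count changed. Deviations of same-numbered arrays correlated by 0.00751 on average and those of others by -0.00375, and 0 of 28 pairs of groups had every correlation over 0.1, so that the numbers were not taken as pairs.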
